A study of Mus musculus with 5 samples.

Results

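The genes described here are 10 secreted proteins of the aortic wall, out of 24309 genes in the aorta count table. They are the matricellular and adhesive proteins Postn, Thbs1, Sparc and Fn1, the small leucine-rich proteoglycans Dcn, Lum, Bgn and Omd, and the secreted proteins Aebp1 and Clu. They were taken by name as one group of extracellular matrix genes and followed through every cell subtype that the authors named and through both aorta libraries. Single-cell RNA was counted with a 10x Genomics droplet kit in mouse tissue, which marks every captured RNA near its 3′ end with a random barcode, so that copies of 1 molecule count once as a unique molecular identifier (UMI). The library labelled DKO came from aorta on an ApoE background, and so did the library labelled WT. DKO is not spelled out in the labels, which use the term Liver-DKO for mice, and the series title concerns epsins, endocytic adaptor proteins of the liver. They name no allele, Cre driver, strain, diet, age or time. A protocol mentions 3 mice without tying them to libraries, and it gives an isolation procedure for liver only. Each group is thus 1 library with no replicate. No difference below has a replicate check, and there is no test of genotype.

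Matricellular proteins are secreted into the matrix and act on cells through integrins and other receptors more than they bear load. Small leucine-rich proteoglycans coat collagen fibrils, regulate how thick the fibrils grow, and carry chondroitin, dermatan or keratan sulphate chains. In the artery wall these genes are known from smooth muscle cells and fibroblasts, and several are studied in atherosclerotic plaques and in calcifying cartilage-like lesions.

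Each aorta library held 2800 cells, with 6228458 UMIs (median 1773.5 per cell) in the library labelled DKO and 6383082 UMIs (median 1709.5) in the library labelled WT. The libraries shared 4 cell barcodes. The authors divide the cells into 23 subtypes under 10 cell type names, and 15 subtypes had at least 50 cells in both libraries. Several names went against the genes that lead the subtype. AP1 and AP2, called adipocytes by the authors, had summed adipocyte markers at 1.57 and 10.9 CPM in DKO and 4.47 and 7.81 CPM in WT, while fibroblast markers such as Serpinf1 and Pi16 were among the leading genes of both. In AP2 the smooth muscle markers summed to 18699 CPM in DKO and 18670 CPM in WT. Its fibroblast markers summed to less, 11740 CPM in DKO and 11608 CPM in WT. HS1 to HS4 are called hematopoietic stem cells, yet cartilage genes such as Col2a1, Chad and Comp led HS3 and Mmp13 and Hp led HS2. TC4, called T cell, was led by the mesothelial gene Upk3b, and MP4, called macrophage, by the neutrophil genes S100a8 and S100a9. The smooth muscle genes Acta2 and Myh11 were among the leading genes of VS1 and VS2. Gm42418 was also among those of VS2, and it led VS3, followed by Camk1d. In VS3 the 8 smooth muscle markers, all detected, summed to 22098 CPM in DKO and 22227 CPM in WT. The authors' codes are therefore used below as codes only. FB1, called fibroblast, was led by Col10a1 and Spp1. Its cartilage and bone markers summed to 2949 CPM in DKO and 9286 CPM in WT. Its fibroblast markers, which include Dcn and Lum, summed to 14959 CPM in DKO and 19997 CPM in WT. Thbs1 and Clu were also among the 10 genes that led FB1, and Omd among those that led HS3. The high levels of these members there are a description of these subtypes and not a finding.

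By GENCODE M21 on GRCm38, Postn lies at chr3:54361109-54391037, Thbs1 at chr2:118111876-118127133, Sparc at chr11:55394500-55423183, Fn1 at chr1:71585520-71653200, Aebp1 at chr11:5861947-5872088 and Clu at chr14:65968483-65981547. Bgn lies at chrX:73483602-73495933. Fn1 and Sparc are on the minus strand and the other 8 on the plus strand. The proteoglycan genes sit among relatives. Dcn (chr10:97479609-97518143) and Lum (chr10:97565128-97572703) are neighbours 46985 bases apart, and Omd (chr13:49582462-49592822) lies between Aspn, 14897 bases away, and Ogn, 15224 bases away. Genes on the opposite strand overlap Thbs1 (Gm29233), Fn1 (Apol7d, 14 UMIs in the table) and Omd (Cenpp, 269 UMIs). No source used here says whether strand was used in counting, so reads of such pairs may not be told apart.

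Promoter windows, from 250 bases before to 50 after a start site, were matched in RefSeq's GRCm38.p6 annotation for 5 of the 10 members (Postn, Sparc, Bgn, Omd and Aebp1), as 6 windows. Thbs1, Fn1, Dcn, Lum and Clu were not matched. The windows of 4 members are printed because their levels part most clearly below: Postn was higher in the library labelled DKO, Omd and Sparc were lower, and Bgn hardly differed. Capitals mark matches to any of 6 motifs searched on both strands: TATAAA (the TATA box), CCAAT, the AP-1 site TGANTCA, the TEAD site CATTCC, the Runt site ACCACA and the GC box CCGCCC. Each is given 5′ to 3′ on the strand of the gene.
Postn, chr3:54360857-54361156, plus strand: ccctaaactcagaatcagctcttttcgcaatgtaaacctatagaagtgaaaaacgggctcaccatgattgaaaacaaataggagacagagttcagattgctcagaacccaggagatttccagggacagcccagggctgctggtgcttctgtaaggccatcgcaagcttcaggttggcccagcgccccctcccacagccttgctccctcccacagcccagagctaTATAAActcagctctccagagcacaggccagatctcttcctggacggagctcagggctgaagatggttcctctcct
Sparc, chr11:55420031-55420330, minus strand: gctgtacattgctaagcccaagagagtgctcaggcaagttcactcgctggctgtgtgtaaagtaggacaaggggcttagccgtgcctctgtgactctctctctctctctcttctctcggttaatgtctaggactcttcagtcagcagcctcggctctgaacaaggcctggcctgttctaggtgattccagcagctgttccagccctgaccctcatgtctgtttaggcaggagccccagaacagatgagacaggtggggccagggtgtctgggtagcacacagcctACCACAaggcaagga
Omd, chr13:49582212-49582511, plus strand: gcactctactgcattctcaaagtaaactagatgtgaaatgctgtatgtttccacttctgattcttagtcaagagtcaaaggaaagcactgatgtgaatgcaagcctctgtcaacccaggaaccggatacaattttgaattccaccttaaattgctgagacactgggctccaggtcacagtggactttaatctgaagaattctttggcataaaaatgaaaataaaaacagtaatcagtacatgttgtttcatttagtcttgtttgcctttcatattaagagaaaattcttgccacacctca
Bgn, chrX:73483351-73483650, plus strand: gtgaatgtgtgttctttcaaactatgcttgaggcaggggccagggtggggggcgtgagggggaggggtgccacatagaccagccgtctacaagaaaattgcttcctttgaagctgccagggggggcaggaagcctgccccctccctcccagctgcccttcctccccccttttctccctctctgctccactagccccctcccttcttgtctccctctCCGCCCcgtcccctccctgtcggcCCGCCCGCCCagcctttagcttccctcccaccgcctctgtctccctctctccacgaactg
The Postn window held TATAAA at position -26 from the start site, a motif found in 13.6% of 32851 promoter windows of the same length. The Sparc window held ACCACA at position 36 (16.8% of windows). The Bgn window held CCGCCC 3 times, at positions -34, -10 and -6, the last 2 matches abutting, and 35.7% of windows hold that motif. None of the 6 motifs matched in the Omd window. CCAAT is found in 37.4% of windows, CATTCC in 14.7% and TGANTCA in 7.81%. The other Postn window, at chr3:54359017-54359316, held CCAAT on the opposite strand at position 25, and the Aebp1 window held CCGCCC at position 16. A match describes letters only.

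Summed over all aorta cells, Postn was the member that stood higher in the library labelled DKO, and Sparc, Fn1, Dcn, Omd and Clu stood lower. Levels are in CPM, the UMIs of a gene per 1000000 UMIs of the same cells, and a ratio is the CPM of DKO over that of WT. Brackets give 95% intervals that cover counting error only. They leave out the spread between cells, mice and preparations. CPM from 3′ tags is not divided by gene length and is compared here within a gene, never between genes. A member counts as past 1.5-fold at a ratio of at least 1.5 or at most 0.667, with at least 100 summed UMIs. Postn, a secreted partner of integrins that is known from remodelling tissue, had 469.6 CPM in DKO and 228.4 CPM in WT, a ratio of 2.06 (1.93 to 2.19). It was the 1 member of 10 past the fold upward, where 5.41% of 10084 genes tested were. Downward 5 members of 10 passed, against 5.79% of all genes. The members were chosen with earlier results of these data known, so these shares give scale and are not a test.

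Sparc, a calcium-binding protein that binds collagen, had 2331 CPM in DKO and 5153 CPM in WT (ratio 0.452, 0.444 to 0.461). Clu, the secreted chaperone clusterin, had 737 CPM in DKO and 1744 CPM in WT (0.423, 0.408 to 0.438). Omd, the keratan sulphate proteoglycan osteomodulin known from bone, had 25.4 CPM in DKO and 111 CPM in WT (0.228, 0.191 to 0.272). These were the members furthest below WT. Dcn, decorin, which binds collagen fibrils and TGF-beta, had 2360 CPM in DKO and 4044 CPM in WT (0.584, 0.572 to 0.596). Fn1, the adhesive glycoprotein fibronectin, had 1328 CPM in DKO and 2084 CPM in WT (0.637, 0.620 to 0.655). Its ratio moved inside the fold, to 0.717, when every cell was weighted alike and to 0.712 when every cell was thinned to 500 UMIs.

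The other members were inside the fold. Lum, the fibril-spacing proteoglycan lumican, lay just inside at 1141 CPM in DKO and 1692 CPM in WT (0.674, 0.654 to 0.695). Its ratio moved past the fold, to 0.618 with every cell weighted alike, 0.633 after thinning and 0.648 without the richest 1% of cells, so that Lum took the place of Fn1 among the 5 lower members under the first pair of these. Aebp1, a collagen-binding secreted protein also called ACLP, had 698 CPM in DKO and 891 CPM in WT (0.784). Bgn, biglycan, had 2051 CPM in DKO and 2251 CPM in WT (0.911). Thbs1, thrombospondin 1, which binds CD47 and CD36 and can activate latent TGF-beta, had 207.3 CPM in DKO and 208.0 CPM in WT (0.996, 0.922 to 1.08).

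The libraries differed in their mix of subtypes, so the difference over all cells was set beside 2 other ratios. HS3 had 96 cells in DKO and 257 in WT, FB1 had 221 in DKO and 402 in WT, HS1 had 254 in DKO and 75 in WT, and VS3 had 351 in DKO and 72 in WT. With the level within each subtype kept and every subtype weighted by its share of cells in the WT library, the ratio was 2.08 for Postn, 0.550 for Clu, 0.628 for Sparc and 0.332 for Omd. It was 0.722 for Dcn, 0.793 for Lum, 0.857 for Fn1, 0.851 for Aebp1, 0.995 for Bgn and 1.22 for Thbs1. The mix alone, taken as WT levels weighted by the DKO mix over WT levels with the WT mix, gave 1.03 for Postn, 0.780 for Clu, 0.770 for Sparc, 0.710 for Dcn and 0.498 for Omd. The mix value of Postn was thus near 1, while for Dcn, Lum and Fn1 the mix alone gave a ratio as low as the levels within subtypes did or lower. Both ratios average the CPM of all 23 subtypes by cells, even TC4 with 1 DKO cell, whereas the ratios over all cells sum UMIs. Averaged by cells with each library's own mix, the ratio was 2.17 for Postn, 0.442 for Clu, 0.494 for Sparc and 0.263 for Omd. It was 0.525 for Dcn, 0.642 for Lum and 0.704 for Fn1.

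HS3 bears on several of these values. Among its cells, the 9 cartilage and bone markers, all detected, summed to 8323 CPM in DKO and 34012 CPM in WT, and the 8 smooth muscle markers, all detected, to 16005 CPM in DKO and 7748 CPM in WT. The part of these markers in the results was not tested. Without HS3, an alternative chosen after seeing the data, the ratio over all cells was 0.581 for Omd and 0.581 for Sparc, 0.682 for Dcn and 0.814 for Fn1, so that 3 members remained past the fold downward. The share of all genes past the fold without HS3 was not counted. Clu (0.420) and Postn (2.01) moved little. In a sum over all cells, fewer cells of a type and less RNA per cell cannot be told apart.

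**Figure D1:**
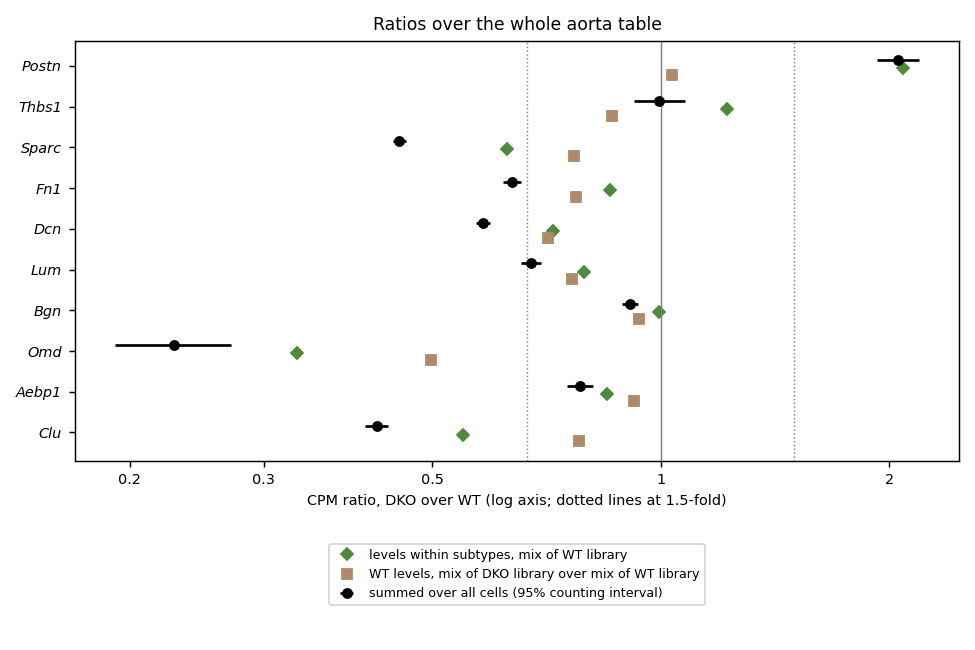
CPM ratios, DKO over WT, of the 10 genes on a log axis, as summed over all cells (circles with 95% counting intervals), with the WT mix of subtypes (diamonds), and for the change of mix alone (squares). Diamonds and squares average the CPM of subtypes by cells, whereas circles sum UMIs. Postn sits at 2.06 and 2.08 with its mix value at 1.03. Every other gene but Thbs1 lies left of 1 in all 3 measures, Omd furthest and Bgn nearest to 1.

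Within the 15 subtypes, 115 of 150 pairs of member and subtype had enough UMIs, of which 19 were past the fold upward and 36 downward. The background differs widely between subtypes. In FB1, 2 of 9 members were higher (7.96% of all genes tested there) and 2 lower (14.1%). HS3 had 2 of 10 higher (10.6%) and 4 lower (13.6%), and HS2 had 4 of 9 lower (6.71%) and 0 higher (8.51%). The smooth muscle subtype VS1 had 1 of 9 higher (4.57%) and 3 lower (5.24%), and VS2 had 1 of 8 higher (5.31%) and 1 lower (6.15%). In HS2 the 8 smooth muscle markers summed to 16529 CPM in DKO and 10646 CPM in WT and the 10 fibroblast markers, which include Dcn and Lum, to 8943 CPM in DKO and 13510 CPM in WT. Their part in its 4 lower members was not tested. In these 5 subtypes Postn was among the members higher in all but HS2, and Dcn was among the lower in every one.

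AP1 had 2 of 9 members higher (5.38%) and 1 lower (7.24%), and AP2 had 1 of 9 higher (5.5%) and 2 lower (7.74%). Clu was lower in both. In HS1, 2 of 9 were higher (19.4%) and 2 lower (12.1%), and in VS3, 2 of 8 were higher (15.1%) and 2 lower (27.3%), shares of genes so large that the members' counts stand near them. EC1, called endothelial, had 0 of 7 higher (8.59%) and 2 lower (10.4%), and TC1, called T cell, had 0 of 7 higher (10.4%) and 3 lower (11.2%). The macrophage subtype MP1 had 1 of 7 higher (4.67%) and 3 lower (13.3%), and MP2 had 2 of 3 higher (19.9%) and 0 lower (17.6%).

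The erythroid subtypes need their scale beside them. In ET1, 7 of 8 members were lower (44.7% of all genes tested) and 0 higher (5.34%), while the median log2 ratio of all genes was -0.53 and the summed haemoglobin and other erythroid markers stood at 517102 CPM in DKO and 306775 CPM in WT. In ET2, 3 of 3 were higher (46.8%) and 0 lower (10.3%), with a median of 0.50 over all genes and erythroid markers at 803453 CPM in DKO and 892948 CPM in WT. With haemoglobin and other abundant non-coding or mitochondrial genes out of the denominator, Sparc (0.741), Fn1 (0.824) and Bgn (0.939) in ET1 and Sparc (1.36) and Fn1 (1.04) in ET2 moved inside the fold. The median log2 ratio over all genes was -0.13 in MP1, -0.10 in VS3 and within 0.1 of 0 in the other 11 subtypes.

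**Figure D2:**
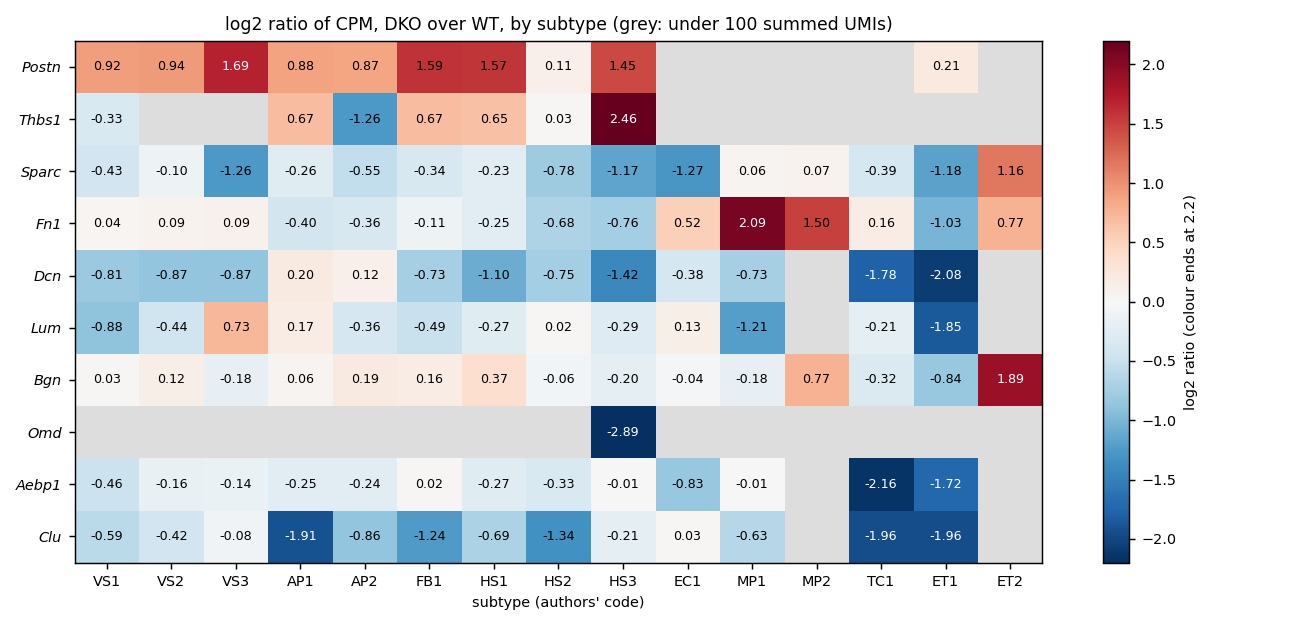
Log2 ratios of CPM, DKO over WT, for the 10 genes (rows) in the 15 subtypes with at least 50 cells in both libraries (columns), red for higher in DKO, blue for lower and grey where fewer than 100 UMIs were summed. The Postn row is red in all 10 filled cells, the Dcn row is blue in 11 of 13, the Clu row in 12 of 13, and the Bgn row is pale outside ET1, ET2 and MP2.

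Postn was higher in the library labelled DKO in all 10 subtypes where it could be compared, past the fold in 8, with a median ratio of 1.90 and a range of 1.08 to 3.22. In the smooth muscle subtype VS1 it had 750.6 CPM in DKO and 397.4 CPM in WT (ratio 1.89, 1.66 to 2.16). In VS2 it had 829 CPM in DKO and 434 CPM in WT (1.91, 1.49 to 2.48). FB1 held its highest level in DKO, 963 CPM, against 320.1 CPM in WT (3.01, 2.57 to 3.53). The order of the subtypes thus differed: FB1 stood first in DKO, with an interval that overlapped that of VS2, whereas HS2 at 463 CPM and VS2 stood first in WT with overlapping intervals. HS3 had 561 CPM in DKO and 205.1 CPM in WT (2.73, 2.15 to 3.48), HS1 283 CPM in DKO and 95.6 CPM in WT (2.96, 1.83 to 5.09), and VS3 733 CPM in DKO and 227.9 CPM in WT (3.22, 1.75 to 6.56). HS2 had nearly the same level in both, 501 CPM in DKO and 463 CPM in WT (1.08, 0.899 to 1.30), and so did ET1 (1.16, 0.798 to 1.70). In AP1, with the lowest Postn of the 15 subtypes in DKO at 109.9 CPM against 59.6 CPM in WT, the ratio of 1.84 moved inside the fold, to 1.39, when cells were weighted alike.

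The higher Postn signal also appeared in cells where the gene is not known to be used. In the erythroid subtype ET2 there were 48 Postn UMIs in DKO and 4 in WT, which is 136 CPM in DKO and 10.8 CPM in WT. Of all genes tested in ET2, 46.8% were higher past the fold. In TC2, called T cell, it stood at 102.8 CPM in DKO and 17.1 CPM in WT. These levels lay below those of VS1 in the same library. Not every subtype below the UMI minimum went this way. EC1 had 32 Postn UMIs in DKO and 44 in WT, or 196 CPM in DKO and 249 CPM in WT (0.787, 0.483 to 1.27). MP3 had 10 Postn UMIs in DKO and 21 in WT. After every cell was thinned to 500 UMIs, 7.92% of ET2 cells had a Postn UMI in DKO and 1.49% in WT, while in VS1 29.4% had one in DKO and 18.0% in WT, and in FB1 35.7% in DKO and 15.7% in WT. Unthinned, the ET2 share was 36.6% (27.3 to 46.8) in DKO at a median of 3598 UMIs per cell and 5.97% (1.65 to 14.6) in WT at 5669. The VS1 share was 78.4% (73.8 to 82.6) in DKO at 2365 UMIs and 53.8% (48.4 to 59.3) in WT at 2119, and the FB1 share 71.9% (65.5 to 77.8) in DKO at 1669 UMIs and 37.6% (32.8 to 42.5) in WT at 1467.5. Droplets pick up free RNA, and its part in the Postn ratios was not tested. In FB1, smooth muscle markers moved the same way as Postn, summing to 14558 CPM in DKO and 6407 CPM in WT with all 8 detected, and their part was not tested either.

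**Figure D3:**
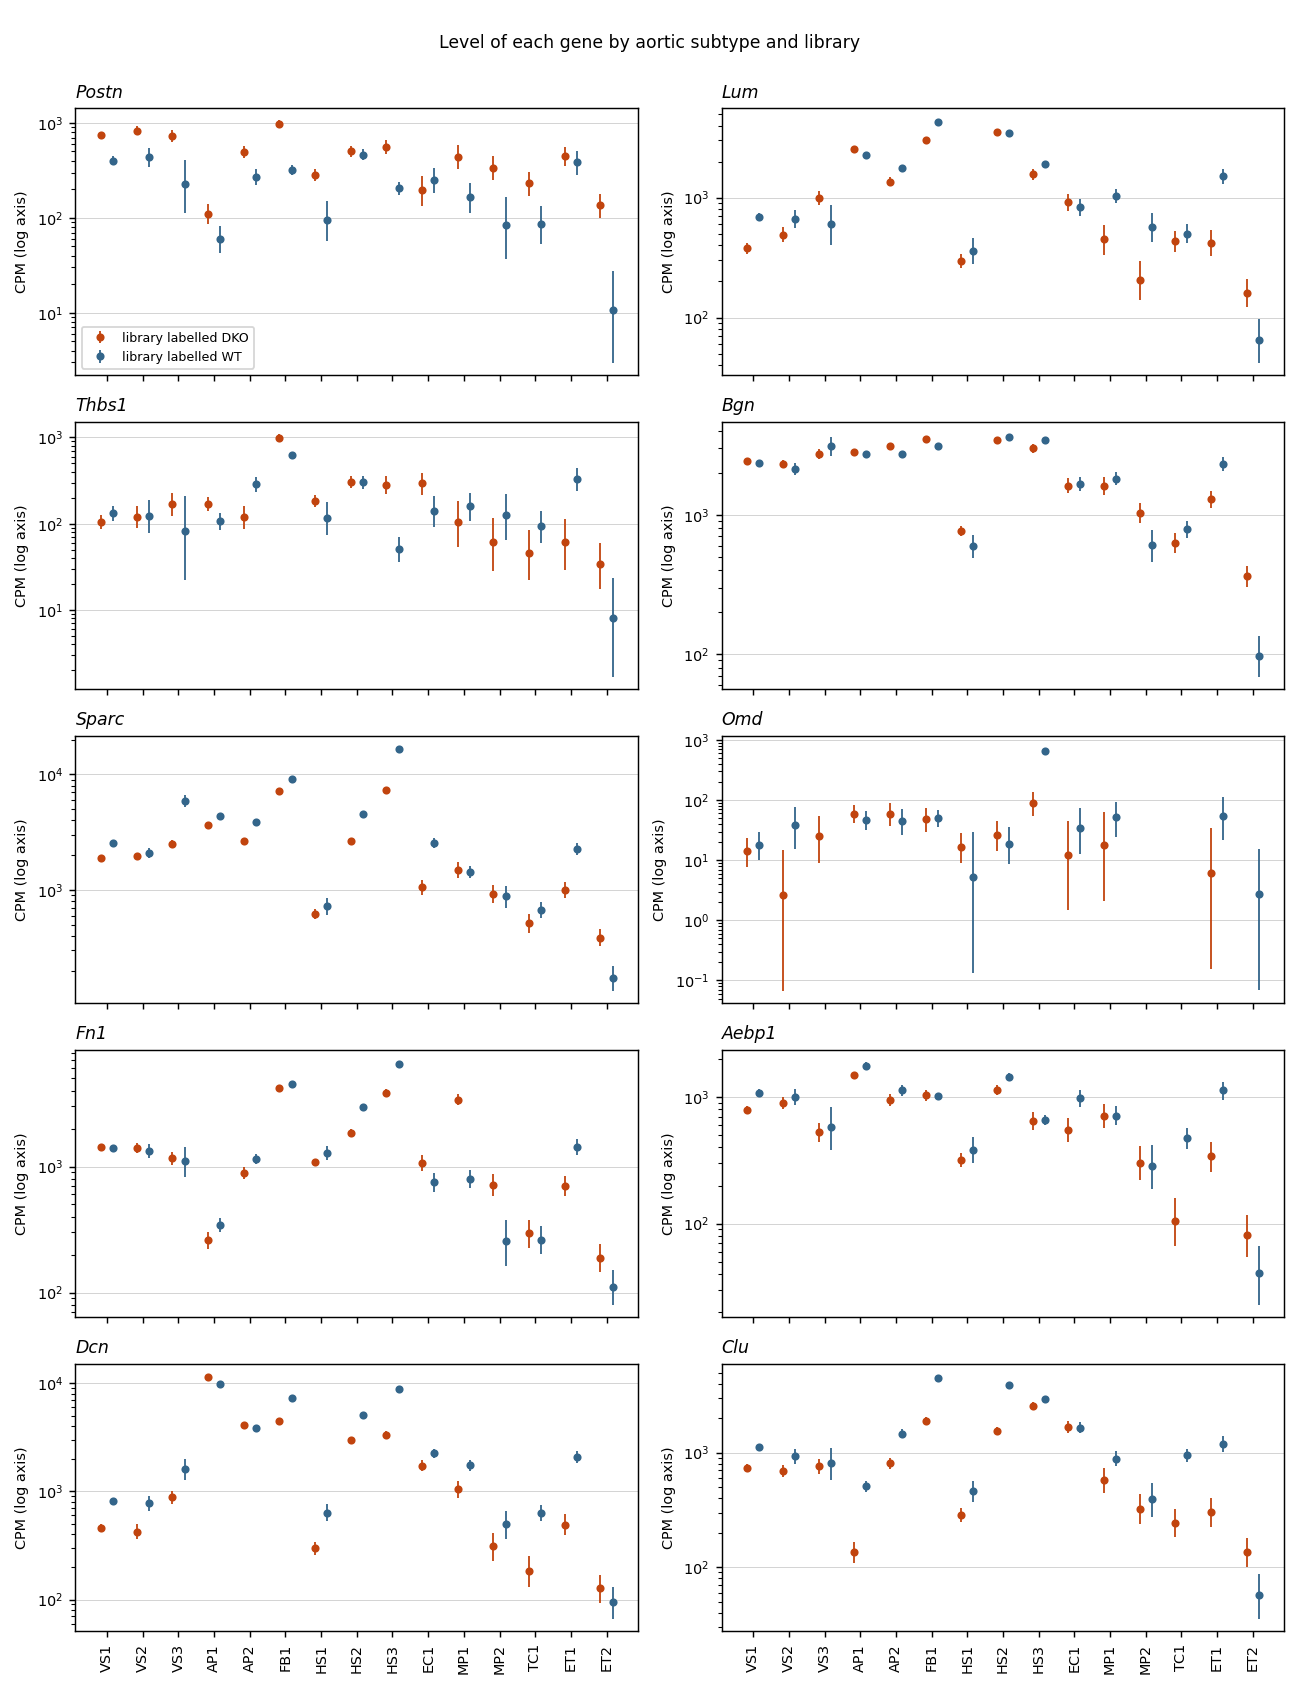
CPM on log axes of each gene in the 15 subtypes, DKO to the left of WT, with exact Poisson 95% intervals that cover counting error only (values of 0 not drawn). Sparc is highest in HS3 and FB1 and Dcn in AP1, Omd in WT stands out in HS3 at 661 CPM, and Fn1 in MP1 is 3393 CPM in DKO and 797 CPM in WT.

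Thbs1 showed no difference over all cells but parted by subtype. Of the 15 subtypes FB1, which it helps lead, held its highest level in both libraries, at 986 CPM in DKO and 619 CPM in WT (1.59, 1.40 to 1.82), and its interval stood clear of the next subtype's in both. In HS3 it had 284.5 CPM in DKO and 51.6 CPM in WT, from 67 UMIs in DKO and 38 in WT (5.51, 3.65 to 8.44). AP2 went the other way, with 119.5 CPM in DKO and 286.4 CPM in WT (0.417, 0.287 to 0.597). The AP2 ratio moved to 0.702 when cells were weighted alike. Ratios of 1.59 (1.17 to 2.18) in AP1 and 1.57 (0.998 to 2.59) in HS1 were past the fold by little, and the HS1 interval includes 1. They moved to 1.33 and 1.41 without the richest 1% of cells for Thbs1. The FB1 ratio moved to 1.26 after thinning. HS2 had 309 CPM in DKO and 303.0 CPM in WT (1.02), and VS1 105.1 CPM in DKO and 132.1 CPM in WT (0.796, 0.603 to 1.05). Among small subtypes left out of the ratios, MP4 had 533 CPM in DKO and 1518 CPM in WT in 20 cells each, and MP3 had 289 CPM in DKO and 980.1 CPM in WT in 14 cells in DKO and 29 in WT.

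Sparc was measured in all 15 subtypes and was lower past the fold in 5 and higher in 1. The higher one was ET2 (2.24), where 46.8% of all genes tested were higher. ET1 (0.442), where 44.7% of all genes were lower, was among the 5. Both ratios moved inside the fold with haemoglobin and other abundant genes out of the denominator. The highest Sparc level was in HS3, 7338 CPM in DKO and 16488 CPM in WT (0.445, 0.423 to 0.468). In WT that interval stood clear of FB1, the next in order at 9094 CPM. In DKO the intervals of HS3 and FB1, at 7165 CPM, overlapped. HS2 had 2650.2 CPM in DKO and 4550 CPM in WT (0.583, 0.543 to 0.624), and EC1 1060.1 CPM in DKO and 2561 CPM in WT (0.414, 0.345 to 0.494). FB1 (0.788), AP1 (0.833), AP2 (0.683), VS1 (0.743) and VS2 (0.931) were all below 1 and inside the fold. In VS3, a shallow subtype, the level was 2489 CPM in DKO and 5945 CPM in WT (0.419), and the ratio moved to 0.763 among cells with at least 1000 UMIs. MP1 (1.04) and MP2 (1.05) hardly differed. High Sparc was also found in subtypes too small to compare. They were SC1, called Schwann cell, with 5098 CPM in DKO and 6343 CPM in WT from 15 cells in DKO and 8 in WT, and BC1, called B cell, with 238 CPM in DKO and 6919 CPM in WT from 14 cells in DKO and 85 in WT. In BC1 the cartilage and bone markers summed to 206 CPM in DKO and 3609 CPM in WT, and their part in the Sparc level was not tested.

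The ratio of Fn1 was above 1 in 8 of 15 subtypes and below 1 in 7, past the fold upward in 3 and downward in 3. These include ET2 (1.71) upward and ET1 (0.491) downward. Fn1 moved inside the fold in both with haemoglobin and other abundant genes out of the denominator. In MP1, where the macrophage genes C1qa and C1qb lead, it had 3393 CPM in DKO and 797 CPM in WT (4.26, 3.52 to 5.16), from 386 UMIs in DKO and 155 in WT. That raised MP1 to the third place of 15 subtypes in DKO, with an interval that overlapped that of HS3, while in WT it lay below AP2 and the smooth muscle subtypes. The UMIs came from 55 of 82 cells in DKO and 52 of 118 cells in WT, and the most in 1 cell was 35 in DKO and 10 in WT. MP2 went the same way with 718 CPM in DKO and 254.5 CPM in WT (2.82, 1.80 to 4.60). In MP1 the 9 macrophage markers, all detected, summed to 6540 CPM in DKO and 8799 CPM in WT, the fibroblast markers to 2751 CPM in DKO (4 of 10 at 0: Pdgfra, Pi16, Clec3b and Serpinf1) and 4731 CPM in WT (none at 0), and the smooth muscle markers to 13819 CPM in DKO and 16276 CPM in WT. All 3 sums were lower in DKO, though the fibroblast sum includes Dcn and Lum. The part of free RNA or of RNA from other cells in the Fn1 ratio of MP1 was not tested. In MP2 the smooth muscle markers summed to 10678 CPM in DKO and 4369 CPM in WT, and their part in its Fn1 ratio was not tested.

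Fn1 was lower past the fold in HS3, HS2 and ET1. HS3 had 3852 CPM in DKO and 6501 CPM in WT (0.592, 0.551 to 0.636) and HS2 1857 CPM in DKO and 2974 CPM in WT (0.624). The HS2 ratio moved inside the fold, to 0.735, when cells were weighted alike. FB1 had 4179 CPM in DKO and 4504 CPM in WT (0.928). VS1 (1.03), VS2 (1.06) and VS3 (1.06) lay near 1, and EC1 was above 1 inside the fold, with 1072 CPM in DKO and 748 CPM in WT (1.43, 1.14 to 1.81).

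Among the small proteoglycans, Dcn was lower in the library labelled DKO in 11 of 13 subtypes and past the fold in 10, with none higher past it. AP1 held the highest level in both libraries and was one of the 2 exceptions, at 11327 CPM in DKO and 9837 CPM in WT (1.15, 1.11 to 1.19). AP2 was the other, at 4156 CPM in DKO and 3837 CPM in WT (1.08, 1.01 to 1.16). FB1 had 4440 CPM in DKO and 7351 CPM in WT (0.604, 0.573 to 0.636), HS2 3022 CPM in DKO and 5075 CPM in WT (0.596), and HS3 3355 CPM in DKO and 8947 CPM in WT (0.375, 0.348 to 0.404). In the smooth muscle subtypes the level was far lower in both libraries, with 460.4 CPM in DKO and 809 CPM in WT in VS1 (0.569) and 425 CPM in DKO and 775 CPM in WT in VS2 (0.548). The VS1 ratio moved to 0.695 with cells weighted alike and the VS2 ratio to 0.778 among cells with at least 1000 UMIs. TC1, with 184 CPM in DKO and 633 CPM in WT (0.291), and ET1 (0.237) are cells in which Dcn is not known to be made, and fibroblast markers, which include Dcn and Lum, were lower there too, at 1040 CPM in DKO and 1867 CPM in WT in TC1 and 1983 CPM in DKO and 6528 CPM in WT in ET1. The part of free RNA in these was not tested.

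Lum followed Dcn in where it was found, and its ratio was near that of Dcn in some subtypes and not in others. Its levels correlated with those of Dcn at r = 0.92 over the 31 sums of a subtype and library with at least 50 cells, the highest among the 45 pairs of members, on the log2(CPM + 10) scale. These points share libraries, depth and free RNA, and the value is a description. In HS2 and VS3, among others, the ratios differed. In HS2 Lum had 3525 CPM in DKO and 3479 CPM in WT (1.01, 0.947 to 1.08) where Dcn had 0.596. FB1 had 3030 CPM in DKO and 4262 CPM in WT (0.711, 0.667 to 0.758), HS3 1563 CPM in DKO and 1907 CPM in WT (0.819) and AP1 2544 CPM in DKO and 2260 CPM in WT (1.13). VS1 was past the fold, as for Dcn, with 377 CPM in DKO and 693 CPM in WT (0.545, 0.477 to 0.621). In VS3 it was higher where Dcn was lower (0.546), with 994 CPM in DKO and 601 CPM in WT from 240 UMIs in DKO and 29 in WT (1.65, 1.12 to 2.52). MP1 had 448 CPM in DKO and 1034 CPM in WT (0.434), which moved to 0.833 when cells were weighted alike, and ET1 had 421 CPM in DKO and 1513 CPM in WT (0.278), beside 0.237 for Dcn.

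Bgn was the most even member. It was detected in 88.2% (87.0 to 89.4) of DKO cells and 83.9% (82.4 to 85.2) of WT cells, and its ratio lay between 0.803 and 1.29 in 12 of 15 subtypes, with a median of 1.02. FB1 had 3507 CPM in DKO and 3133 CPM in WT (1.12, 1.05 to 1.19), HS2 3458 CPM in DKO and 3609 CPM in WT (0.958), and VS1 2423 CPM in DKO and 2369 CPM in WT (1.02). The 3 subtypes past the fold were ET1 (0.559), ET2 (3.72) and MP2, the last with 1029 CPM in DKO and 604 CPM in WT (1.70, 1.25 to 2.35). With haemoglobin and the other abundant genes out of the denominator, the ratio was 0.939 in ET1 and 2.25 in ET2.

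Omd had enough UMIs to compare in HS3 alone. HS3 held 21 of its 158 DKO UMIs, or 13.3% (8.42 to 19.6), and 487 of its 709 WT UMIs, or 68.7% (65.1 to 72.1). The level there was 89.2 CPM in DKO and 661 CPM in WT (0.135, 0.0827 to 0.208). After thinning to 500 UMIs, 3.13% of HS3 cells had an Omd UMI in DKO and 23.7% in WT. Unthinned, the shares were 10.4% (5.11 to 18.3) in DKO and 45.5% (39.3 to 51.8) in WT, at a median of 2084.5 UMIs per cell in DKO and 2735 in WT. In WT the interval of HS3 stood clear of the next in order, BC1 at 213 CPM, whereas in DKO it overlapped with AP2 at 59.8 CPM and AP1 at 59.6 CPM. In AP1 there were 38 Omd UMIs in DKO and 31 in WT, and in FB1 21 in DKO and 40 in WT. Of the neighbours of Omd on chromosome 13, in HS3 Ogn, osteoglycin, had 730.4 CPM in DKO and 702 CPM in WT (1.04), Aspn, asporin, 93.4 CPM in DKO and 166 CPM in WT (0.564) and Ecm2 242 CPM in DKO and 479 CPM in WT (0.505). Aspn and Ecm2 were thus lower past the fold, as Omd was, and Ogn was not.

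Aebp1 was inside the fold in 10 of 13 subtypes. Of the 15 subtypes its highest level in both libraries was in AP1, 1492 CPM in DKO and 1776 CPM in WT (0.840, 0.771 to 0.916), clear of the next subtype, HS2, at 1141 CPM in DKO and 1436 CPM in WT (0.794). FB1 (1.02), HS3 (0.990) and MP1 (0.996) hardly differed. VS1 had 788 CPM in DKO and 1087 CPM in WT (0.725, 0.658 to 0.798). The 3 subtypes past the fold downward were EC1 with 552 CPM in DKO and 980.1 CPM in WT (0.563), which moved to 0.711 with cells weighted alike, TC1 with 106 CPM in DKO and 473 CPM in WT (0.224), and ET1 (0.303). The summed fibroblast markers, which include the members Dcn and Lum, were lower in DKO in all 3. In EC1 they summed to 5135 CPM in DKO and 6980.0 CPM in WT. They were also lower in FB1, HS3 and VS1, where Dcn itself was lower past the fold. The part of these markers was not tested.

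Clu was lower past the fold in 9 of 13 subtypes and higher in none. In FB1, which it helps lead, it had 1901 CPM in DKO and 4485 CPM in WT (0.424, 0.392 to 0.457). The 9 cartilage and bone markers of FB1, all detected, moved the same way, summing to 2949 CPM in DKO and 9286 CPM in WT, and the smooth muscle markers the other way, as given beside Postn. Their part in the lower Clu and Dcn of FB1 was not tested. HS2 had 1552 CPM in DKO and 3929 CPM in WT (0.395, 0.363 to 0.430), AP1 135 CPM in DKO and 507 CPM in WT (0.266, 0.208 to 0.338) and AP2 807 CPM in DKO and 1468 CPM in WT (0.549). The others were VS2 (0.747), HS3, EC1 and VS3. HS3 had 2565 CPM in DKO and 2968 CPM in WT (0.864, 0.788 to 0.946), EC1 1685 CPM in DKO and 1654 CPM in WT (1.02), and VS3 762 CPM in DKO and 808 CPM in WT (0.943). As a result HS3 stood first in DKO, clear of FB1, and FB1 stood first in WT, clear of HS2. In VS1 the ratio of 0.662 lay at the fold and moved to between 0.678 and 0.745 under 5 of the alternatives. In FB1 of the DKO library, 1% of the cells held 21.5% of the Clu UMIs, against 7.0% in WT, and 1 DKO cell held 147.

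The share of each gene's RNA held by a subtype follows both its level there and the subtype's share of all UMIs. VS3 held 3.88% of all UMIs in DKO and 0.756% in WT, HS3 3.78% in DKO and 11.5% in WT, FB1 6.97% in DKO and 12.6% in WT, and AP1 10.2% in DKO and 10.5% in WT. For Postn, VS1 held 25.6% (24.1 to 27.3) of the UMIs in DKO and 22.7% (20.6 to 24.9) in WT, and VS3 6.05% (5.21 to 6.98) in DKO and 0.754% (0.377 to 1.35) in WT. For Dcn, AP1 held 49.1% (48.3 to 49.9) in DKO and 25.6% (25.0 to 26.1) in WT, and HS3 5.37% (5.02 to 5.75) in DKO and 25.5% (25.0 to 26.1) in WT. For Sparc, HS3 held 11.9% (11.4 to 12.4) in DKO and 36.9% (36.4 to 37.4) in WT. For Clu, FB1 held 18.0% (16.9 to 19.1) in DKO and 32.5% (31.6 to 33.4) in WT. AP1 was thus the subtype with the largest share of Dcn in the DKO library, and its own Dcn level was not lower there.

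**Figure D4:**
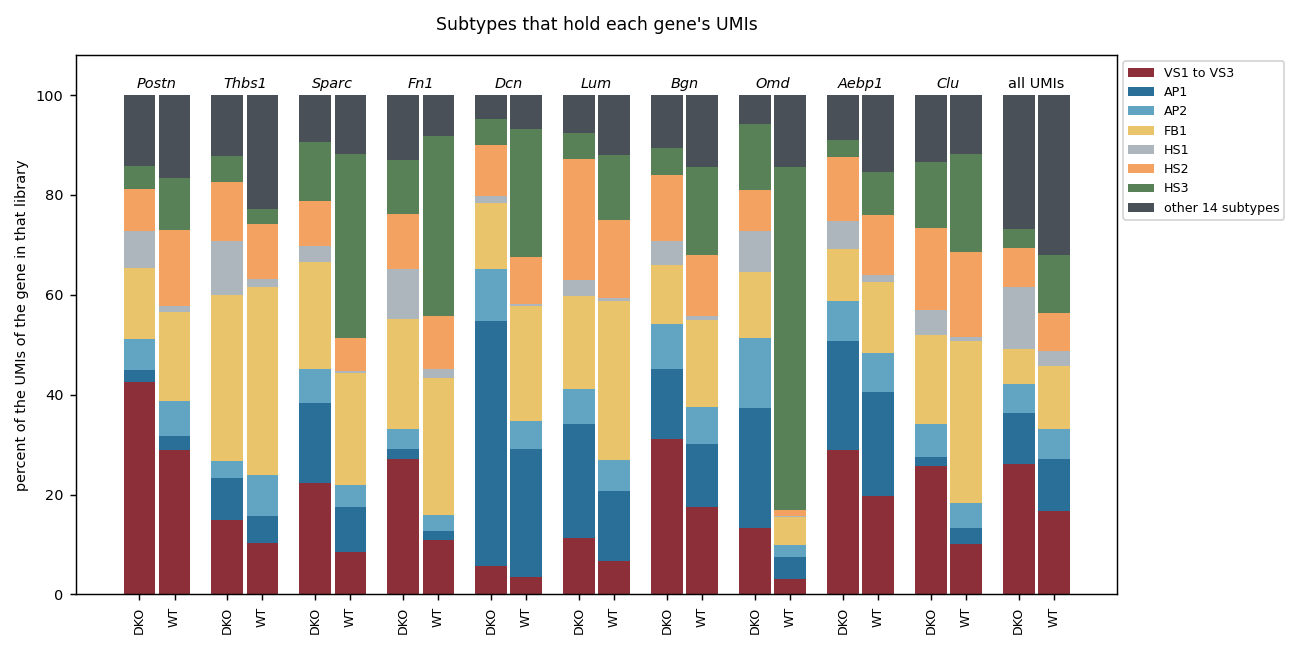
Percent of each gene's UMIs held by the subtypes, as stacked bars that start at 0, DKO left of WT, with all UMIs of the library at the right for scale. HS3 holds 68.7% of Omd and 36.9% of Sparc in WT, against 13.3% and 11.9% in DKO, and AP1 holds 49.1% of Dcn in DKO against 25.6% in WT.

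Related genes, listed by family and role, were counted in the same way over all cells. The shares of all genes past the fold over all cells, 5.41% upward and 5.79% downward, are the background for each list. Of 21 other matricellular genes with enough UMIs, 2 were higher and 4 lower, with a median log2 ratio of -0.18 beside -0.01 over all genes. Comp, a cartilage thrombospondin, was the lowest at 165 CPM in DKO and 1618 CPM in WT (0.102, 0.0955 to 0.109). Of 8 other small proteoglycans 0 were higher and 2 lower (median -0.31), and of 5 large proteoglycans 1 was higher and 2 lower (median 0.04). Vcan, versican, which binds hyaluronan, had 176 CPM in DKO and 96.2 CPM in WT (1.83, 1.65 to 2.02), and Prg4, the joint lubricant lubricin, 78.2 CPM in DKO and 397 CPM in WT (0.197). Of 7 fibrillar collagens 0 were higher and 3 lower (median -0.58). Of 16 genes that build glycosaminoglycan chains 1 was higher and 3 lower (median -0.16). Of 23 receptors of the members 2 were higher and 3 lower (median -0.07). The higher ones included Itga9, an integrin subunit, with 349 CPM in DKO and 189 CPM in WT (1.84, 1.72 to 1.98).

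Within subtypes, some of these genes differed beside the members. In FB1, where Postn was 3.01 times the WT level, Itga8, an integrin subunit, had 772 CPM in DKO and 305 CPM in WT (2.53, 2.14 to 2.99), and Ccn3, a matricellular CCN protein, had 516 CPM in DKO and 218 CPM in WT (2.36). Comp had 454 CPM in DKO and 2561 CPM in WT there (0.177). In HS3, Ccn3 had 522 CPM in DKO and 158 CPM in WT (3.32, 2.55 to 4.31), Itga9 335 CPM in DKO and 164 CPM in WT (2.04), and Comp, which led that group, 1894 CPM in DKO and 8995 CPM in WT (0.211). In VS1, Vcan had 233 CPM in DKO and 99.7 CPM in WT (2.34, 1.81 to 3.04), while Spp1, osteopontin, had 595 CPM in DKO and 1207 CPM in WT (0.493). In MP1, beside Fn1, Spp1 had 3367 CPM in DKO and 1584 CPM in WT (2.13, 1.82 to 2.48). In HS2, Col1a1, a chain of type I collagen, had 1605 CPM in DKO and 3533 CPM in WT (0.454).

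In FB1, where 14.1% of all genes were lower past the fold and 7.96% higher, 5 of 6 glycosaminoglycan genes were lower (median -1.14, beside -0.07 over all genes) and 0 higher, and 3 of 5 other small proteoglycans were lower and 1 higher (median -0.72). There Prelp had 269.6 CPM in DKO and 498 CPM in WT (0.542), while Ogn had 640.5 CPM in DKO and 355 CPM in WT (1.80). The cartilage and bone markers given above for FB1 move with these, and their part was not tested. In HS3, 4 of 6 other small proteoglycans were lower (13.6% of all genes) and 0 higher (10.6%), with a median of -0.74. In AP1 these were 0 of 6 lower (7.24%) and 1 higher (5.38%), Aspn, with 269.9 CPM in DKO and 155 CPM in WT (1.74, 1.36 to 2.24).

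Across the 31 sums of subtype and library, 4227 genes with at least 500 UMIs were ranked by how closely their levels followed each member. Postn went with Ccn3 (r = 0.92), Cdo1 (0.89) and Mylk (0.88), and Fn1 with Tnc (0.90), Serpine2 (0.89) and Col5a2 (0.85). Dcn went with Ctsk (0.93), Tmed3 (0.90) and Abi3bp (0.89), and Lum with Mxra8 (0.92), Ctsk (0.88) and Prelp (0.88). Bgn went with Kdelr2 (0.96), Mxra8 (0.95) and Dbi (0.95), Aebp1 with Igfbp7 (0.96), Timp2 (0.94) and Htra1 (0.92), and Sparc with Ppic (0.92), Ccdc80 (0.91) and Col6a2 (0.91). Thbs1 went with Eln (0.81), Vcam1 (0.79) and Nupr1 (0.78), Omd with Pcolce2 (0.80), Ccdc80 (0.79) and Fmod (0.79), and Clu with Scara3 (0.87), Mustn1 (0.84) and Serpine2 (0.83). Scara3 is also the neighbour of Clu on chromosome 14, 14548 bases away. Among the members themselves Aebp1 and Bgn (0.89) and Bgn and Sparc (0.87) came next to Dcn and Lum, while Postn went least with Omd (0.11) and Dcn (0.20).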

How the data were processed

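Droplet 3′ RNA was measured in 2 aorta libraries. Reads were processed with Cell Ranger 7.1.0 and the build mm10, per the submitters' processing notes. The authors deposited raw UMI counts per gene and cell, and subtypes came from their deposited metadata, of which 28 columns were not used. No source used here gives their cell filters or doublet handling, and no doublet caller was run. In the deposited counts every cell had at least 499 UMIs, 201 to 2499 genes and at most 5.00% mitochondrial UMIs. Such limits remove deep cells. Counts were summed per subtype and library and given as CPM with exact Poisson intervals, ratios with exact conditional binomial intervals and shares with Clopper-Pearson intervals unless thinned, in Python 3.11.15 with numpy 2.4.6, pandas 2.3.3, scipy 1.17.1 and matplotlib 3.10.9. Ratio intervals were run on simulated Poisson counts, the model that they assume. Those runs check the calculation only, since real UMIs can cluster in cells, as those of Clu did in FB1. CPM sums to a constant, so abundant genes lower all others. Subtypes with under 50 cells in either library have no ratio. Leading genes had at least 200 CPM and 2 times the level of other subtypes after adding 20 CPM. The members, the 6 gene lists, the markers and the alternatives were chosen with earlier results of these data known. All 10 members are named. From the lists, up to 2 genes at each end per class, ranked by the interval bound nearest to 1, could be named, and 3 like-patterned genes per member. Neighbours Ogn, Aspn, Ecm2 and Prelp were named for their position or family after their values were seen. Alternatives changed the scaling, the denominator, the weight of cells, the depth, the richest cells and the UMI minimum.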

Additional observations from a re-analysis of the deposited data

Results flagged for a closer look

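For 5 members the ratio of DKO over WT stood past 1.5-fold upward in 1 subtype and downward in another, with intervals on opposite sides of 1. With 1 library per group, none of these differences between subtypes was tested. Thbs1 had a ratio of 5.51 in HS3 and 0.417 in AP2. Fn1 had 4.26 in MP1 and 0.491 in ET1, and Lum had 1.65 in VS3 and 0.278 in ET1. Sparc had 2.24 in ET2 and 0.445 in HS3, and Bgn had 3.72 in ET2 and 0.559 in ET1. In ET1 and ET2 the haemoglobin share differed between the libraries. With haemoglobin and other abundant genes out of the denominator, Fn1 (0.824) and Bgn (0.939) in ET1 and Sparc (1.36) in ET2 moved inside the fold, so those 3 pairs keep 1 side past it. Lum in ET1 (0.467) and Bgn in ET2 (2.25) stayed past it. The Thbs1 pair involves neither ET1 nor ET2, but its AP2 ratio moved inside the fold when every cell was weighted alike. That pair rests on few UMIs, 44 in DKO and 110 in WT in AP2 and 67 in DKO and 38 in WT in HS3. Fn1 was also lower past the fold in HS3 (0.592, 0.551 to 0.636), so its 2 directions do not rest on ET1 alone.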

How the results depend on the processing

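No ratio past 1.5-fold changed direction under the 6 alternatives to how ratios were computed. Of 61 such ratios (6 over all cells and 55 within subtypes), 55 stayed past the fold when scaled by the median ratio of all genes, 54 with mitochondrial, haemoglobin, Gm42418 and AY036118 counts out of the denominator, and 50 with every cell weighted alike. Among cells with at least 1000 UMIs 56 of 58 did, without the richest 1% of cells 56 of 59, and after thinning to 500 UMIs 29 of 34. Within subtypes, 19 pairs higher and 36 lower became 7 and 22 after thinning, where 72 pairs had enough UMIs in place of 115. A minimum of 20 UMIs gave 28 and 42 of 140, and leaving out ET1, ET2 and VS3, chosen after seeing the data, 14 and 27 of 96. Over all cells 5 members were lower, 6 without the richest cells and 3 without HS3, the last chosen after seeing the data. The shares of all genes past the fold were counted in the main setting only. Counts of members under the alternatives thus have no background of their own. No paired analysis was possible because each group is 1 library and both carry the same number. Depth limits Omd, which had enough UMIs in HS3 alone, and Thbs1, compared in 7 of 15 subtypes. Intervals and ratios leave out the spread between animals.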
